A study of Homo sapiens with 4 samples.

Results

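The genes described here are the oxidative stress regulator NFE2L2 (the gene of the NRF2 protein), its repressor KEAP1, 6 antioxidant enzymes that NRF2 is known to induce, and the 2 subunits of cytosolic ferritin. They were taken by name from a table of 60544 genes. All 10 names matched 1 row each, and all 10 genes were among the 16802 that passed the filter on low counts. The RNA came from PC3, an established human line grown from a bone metastasis of prostate cancer, and was sequenced as poly(A) RNA. The study compared knockdown of METTL3, the enzyme that places N6-methyladenosine (m6A) on messenger RNA, with a control. There were 2 libraries labelled shNC (control) and 2 labelled sh812, taken here as the knockdown since the series has no further label. Both labels begin with sh, so the control too carries an introduced construct. All 4 libraries came from cells grown in the same serum-containing medium. A single knockdown label was used, and the labels do not say whether replicates were separate cultures. The p-values therefore measure the spread between these libraries, estimated in part from other genes.

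NRF2 is a transcription factor that KEAP1 holds in the cytoplasm and delivers to the proteasome. When oxidants or electrophiles modify KEAP1, NRF2 escapes, enters the nucleus, pairs with a small MAF protein and binds antioxidant response elements at genes for glutathione synthesis, thioredoxin reduction, quinone reduction and haem breakdown. Haem breakdown frees iron, which ferritin stores as a mineral inside a shell built from heavy (FTH1) and light (FTL) chains. Ferritin is also set by iron itself: iron regulatory proteins bind a hairpin near the start of ferritin mRNA, the iron-responsive element, and block its translation when iron is scarce. The abundance of ferritin mRNA, measured here, is therefore only part of what sets ferritin protein.

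The iron-responsive elements of both ferritin mRNAs are shown first, because the ferritin genes were the 2 called among the 10. They were searched on the transcript strand as a bulged C, 5 bases, the loop CAGTGN and 5 bases that pair with those before the loop (G-U pairs allowed), in the first 250 bases of each GENCODE 29 protein-coding transcript. Of 13237 tested genes with such a transcript, 30 (0.227%) held the pattern, among them FTH1 and FTL but none of the 8 other members. The iron exporter gene SLC40A1, described further on, was also among the 30. Capitals mark the loop, which spans bases 71 to 76 of transcript FTH1-201 and bases 47 to 52 of FTL-201.
FTH1: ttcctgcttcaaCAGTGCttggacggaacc
FTL: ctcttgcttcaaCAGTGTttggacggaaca
The stem next to the loop read ttcaa and ttgga in both subunits.

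The core of the antioxidant response element was searched as TGACNNNGC on both strands, from 250 bases before to 50 bases after the gene start, in RefSeq promoters (GRCh38.p14). Entries were matched for 8 members, without FTH1 and HMOX1. Matches lay in TXNRD1 (2) and GCLM (1), which are shown as the only matches of these 8 members in this window. Bases further from the gene start were not searched, so a lack of matches here does not show that a gene has no such element. Across the promoters of tested genes, 15.1% of 11358 windows of the same length held a match, and a match is a letter pattern, not a measured binding site. Each stretch is given on the strand of its gene, with the 9 letters of the match in capitals.
TXNRD1, chr12:104215670-104215698: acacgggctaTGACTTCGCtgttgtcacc
TXNRD1, chr12:104215761-104215789: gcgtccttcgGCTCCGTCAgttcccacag
GCLM, chr1:93909446-93909474: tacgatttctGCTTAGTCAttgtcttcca
TXNRD1 lies on the plus strand and GCLM on the minus strand. The first TXNRD1 match read forward, 99 bases before the start. The second TXNRD1 match, 8 bases before the start, and the GCLM match, 34 bases before it, read on the strand opposite to the gene. None of the 3 overlapped the AP-1 motif TGANTCA.

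Libraries held 31450648 to 37041330 gene counts, of which the 10 genes took 0.448% to 0.485%. METTL3, the targeted gene, had 1682 and 1379 counts in shNC and 269 and 313 in sh812, or 18.7% of the control level in CPM (counts scaled to a common, normalised library size). Over all tested genes, 1822 (10.8%) were called, that is, they had a Benjamini-Hochberg adjusted p below 0.05 by the quasi-likelihood test of edgeR. The higher side had 912 genes and the lower side 910. With library size alone as the scaling, the split was 561 higher and 1328 lower. The epithelial keratins KRT8 and KRT18 were well expressed, at 232 and 154 CPM in shNC, while the prostate secretory genes KLK3 and KLK2 had 0 counts in every library, as did the T cell gene CD3E and the globin gene HBB. Some cell type markers moved with the group: EPCAM, CDH1, KRT18, COL1A2 and PECAM1 were called higher, at 0.45, 0.57, 0.30, 0.50 and 0.59 on the log2 scale, and TMPRSS2 was called lower, at -0.74. The endothelial genes CDH5 and VWF had at most 6 counts. Of the other fibroblast genes, COL1A1 (-0.27) and DCN (-0.56) were below 0 on the log2 scale and PDGFRB (0.69) was above it, none called. The part of these differences in the results was not tested. No sequencing batch is given in the labels.

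Among the 10 genes, only the 2 ferritin genes were called between sh812 and shNC. FTH1 and FTL both rose, to 126% and 115% of their control level, and none of the 8 other genes passed the test in either direction. NFE2L2 itself and TXNRD1 were slightly above control in both sh812 libraries, and HMOX1, GCLC, GCLM and NQO1 were slightly below it, none past the threshold. GCLM (-0.21) and HMOX1 (-0.205) lay about as far from 0 on the log2 scale as FTL (0.20). The FTL call was lost with the length trend removed (0.08), as described below. Of the 10 genes, 2 were called higher and 0 lower, against 5.43% and 5.42% of all tested genes. On the lower side, 1 gene (GCLM) had an unadjusted p under 0.05 in edgeR, and limma-voom and DESeq2 likewise called 0. The groups did not overlap for 4 members on the higher side and 4 on the lower side, against 26.2% and 27.4% of all tested genes. The members' median log2 fold change was -0.02, beside -0.0056 over all tested genes. Both called genes were iron storage subunits.

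**Figure D1:**
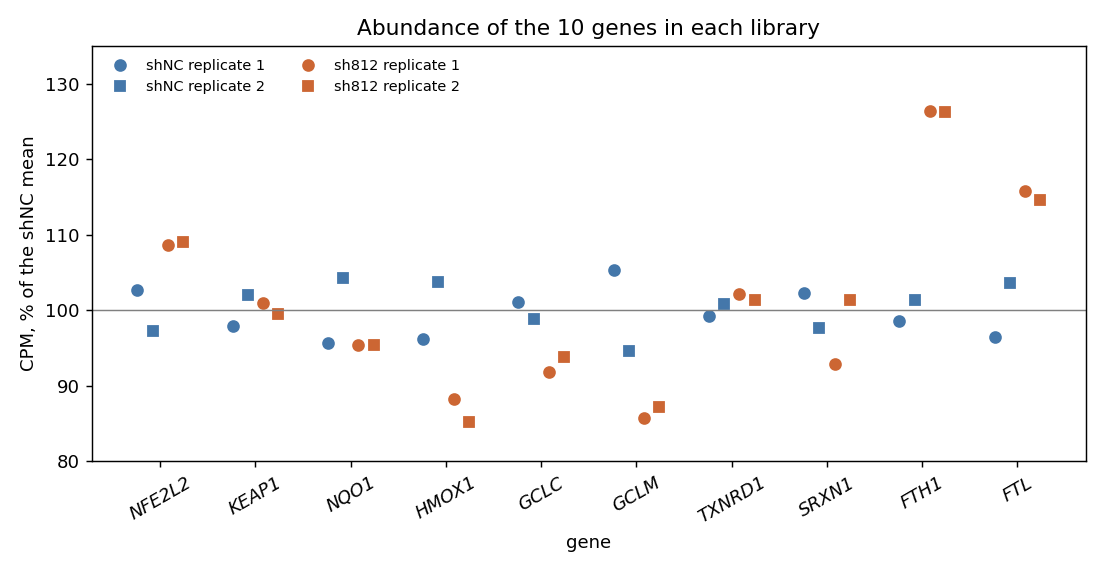
Abundance of each gene in the 4 libraries, as CPM in percent of the mean of the 2 shNC libraries (horizontal line at 100). Both sh812 points lie above both shNC points for FTH1 (126% of control on average) and FTL (115%), while the points of KEAP1 and SRXN1 overlap between groups.

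FTH1 encodes the ferritin heavy chain, the subunit with the ferroxidase site that oxidises iron for storage. It lies on chromosome 11 from 61959718 to 61967660 on the minus strand (GRCh38, GENCODE 29), as do all positions given here by gene model. It had 46939 and 40234 counts in shNC and 55681 and 56698 in sh812. In CPM these were 1236 and 1271 in shNC and 1585 and 1583 in sh812. Both sh812 libraries were above both shNC libraries, and they differed from each other by less than the controls did. The mean went from 1254 ± 24.5 to 1584 ± 1.32 CPM (SD, n = 2), a log2 fold change of 0.34 (SE 0.05, 95% interval 0.23 to 0.45), with an adjusted p of 0.000169 in edgeR. FTH1 moved from rank 58 and 63 among all genes by count in the shNC libraries to rank 42 in both sh812 libraries.

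FTL encodes the ferritin light chain, which favours formation of the iron core. It lies on chromosome 19 from 48965301 to 48966878. Its CPM was 877 and 943 in shNC and 1053 and 1043 in sh812, from 33299, 29838, 37001 and 37341 counts. The groups did not overlap, though the 2 controls lay further apart than those of FTH1. The mean went from 909.9 ± 46.3 to 1048 ± 7.505 CPM (SD, n = 2). The log2 fold change was 0.20 (SE 0.06, 95% interval 0.09 to 0.32), with an adjusted p of 0.0199 in edgeR. Ferritin mRNA of both chains together took 0.217% and 0.223% of counts in shNC and 0.259% in each sh812 library. The heavy chain gained on the light chain. The ratio of FTH1 to FTL per kilobase of union exon was 0.61 and 0.583 in shNC and 0.651 and 0.657 in sh812, without overlap. By counts, the ratio was 1.41 and 1.348 in shNC and 1.505 and 1.518 in sh812.

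Gene length moved with these results. Both ferritin genes are short, with union exon lengths of 2030 bases for FTH1 and 878 for FTL, against a median of 5123 over 12255 genes. The 637 genes of up to 1500 bases among these had a median log2 difference of 0.158 between sh812 and shNC. The Spearman correlation between length and difference across genes was -0.297, and it was -0.304 between the 2 shNC replicates, which share a group, and 0.0308 between the sh812 replicates. With each library's length trend removed, FTH1 had a log2 fold change of 0.25 (adjusted p = 0.00194 in edgeR). FTL had one of 0.08 (adjusted p = 0.385 in edgeR), so the FTL call was lost and FTH1 alone remained called. The trend was taken on union exon length, whereas the longest protein-coding transcript of FTH1 in the GENCODE basic set has 1229 bases. Removal of a trend on transcript length was not tried. FTL also lost its call when either sh812 library was left out, at 0.20 without replicate 1 (adjusted p = 0.272 in edgeR) and 0.21 without replicate 2 (adjusted p = 0.202), where the lone sh812 library was assumed to vary like the controls. FTH1 was called in all 14 alternatives, from 0.25 to 0.36.

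**Figure D2:**
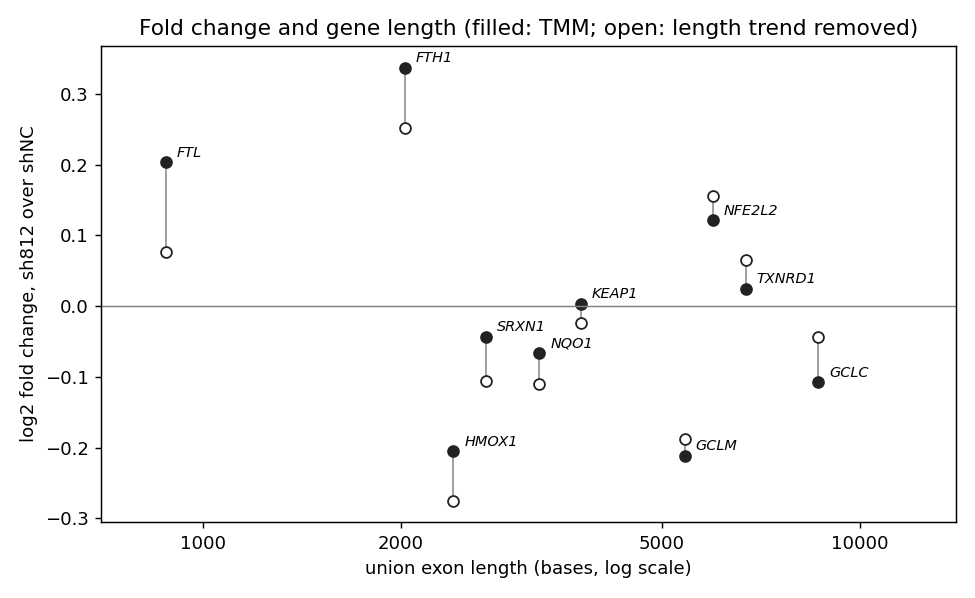
Log2 fold change of the 10 genes, sh812 over shNC, against union exon length (log axis), with filled points for the TMM fit and open points after removal of each library's length trend. FTL, the shortest at 878 bases, goes from 0.20 to 0.08, and FTH1 from 0.34 to 0.25.

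Ferritin has many retrocopies, whose reads can be confused with those of the parent gene. The table lists 25 FTH1 pseudogenes and 16 FTL pseudogenes. Counts on the FTH1 copies summed to 708 and 594 in shNC and 833 and 866 in sh812, or 1.48% to 1.53% of the FTH1 count in each library. Counts on the FTL copies summed to 44 to 91, or 0.148% to 0.244% of FTL. How reads matching several copies were counted is not given in the sources used here, so both ferritin counts carry that uncertainty. BEST1 shares 1267 exon bases with FTH1 on the opposite strand but held only 7 to 40 counts.

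NFE2L2, the transcription factor at the head of the pathway, lies on chromosome 2 from 177227595 to 177392697. It had 93.8 and 88.8 CPM in shNC and 99.2 and 99.5 CPM in sh812, so the groups did not overlap. Such an arrangement, in either direction, was found in 53.6% of all tested genes. The log2 fold change was 0.12 (SE 0.07, 95% interval -0.01 to 0.26), with an adjusted p of 0.26 in edgeR, and it stayed above 0 in all 14 alternatives, from 0.08 to 0.16, without a call in any. NFE2L2 shares exon bases with the well expressed gene AGPS on the opposite strand over 54 bases.

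KEAP1, the adaptor that brings NRF2 to the CUL3 ubiquitin ligase, lies on chromosome 19 from 10486120 to 10503741. Its CPM was 128 and 133 in shNC, with 131.7 and 129.8 in sh812. The sh812 libraries fell between the controls. The log2 fold change was 0.0033 (SE 0.06, 95% interval -0.12 to 0.13), and the edgeR adjusted p was 0.985. It was below 0 with library size alone (-0.04), with a mean CPM of at least 1 (-0.0021) and with the length trend removed (-0.02). The ratio of NFE2L2 to KEAP1 per kilobase was 0.462 and 0.42 in shNC and 0.474 and 0.482 in sh812, higher in both sh812 libraries.

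Glutamate-cysteine ligase makes the first and rate-limiting step of glutathione synthesis and consists of a catalytic (GCLC) and a modifier (GCLM) subunit. GCLM, on chromosome 1, had 58 and 52.1 CPM in shNC and 47.1 and 48 CPM in sh812. Both sh812 libraries lay below the lower control. Its log2 fold change was -0.21 (SE 0.08, 95% interval -0.37 to -0.05), with an unadjusted p of 0.0128 (adjusted p = 0.0851 in edgeR). It passed the threshold with library size alone (-0.26, adjusted p = 0.0436 in edgeR) and without shNC replicate 2 (-0.28, adjusted p = 0.00683), and was -0.13 without shNC replicate 1. GCLC, on chromosome 6, had 57.5 and 56.2 CPM in shNC and 52.2 and 53.4 CPM in sh812, again without overlap. Its log2 fold change was -0.11 (SE 0.07, 95% interval -0.26 to 0.05), with an adjusted p of 0.399 in edgeR. The ratio of GCLC to GCLM counts was 0.992 and 1.08 in shNC and 1.11 in both sh812 libraries.

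HMOX1 encodes haem oxygenase, which splits haem and releases its iron, and lies on chromosome 22 from 35380361 to 35394214. It had 18.1 and 19.5 CPM in shNC and 16.6 and 16 CPM in sh812. Both sh812 libraries were below both controls, opposite to the ferritin genes. The log2 fold change was -0.205 (SE 0.11, 95% interval -0.43 to 0.02), with an adjusted p of 0.257 in edgeR. No alternative called it, and its value ran from -0.27 to -0.14.

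TXNRD1, the cytosolic thioredoxin reductase on chromosome 12, was the most abundant member by count, at 1773 and 1800 CPM in shNC and 1824 and 1810 CPM in sh812. The 4 values lay within a narrow band. The log2 fold change was 0.02 (SE 0.05, 95% interval -0.08 to 0.13), with an adjusted p of 0.833 in edgeR, and it was -0.02 with library size alone. NQO1, a quinone reductase on chromosome 16 that is often used as a readout of NRF2 activity, had 122 and 133 CPM in shNC and 122 in each sh812 library. Its log2 fold change was -0.07 (SE 0.06, 95% interval -0.20 to 0.07), with an adjusted p of 0.581 in edgeR, and it was 0.0024 without shNC replicate 2. SRXN1, the sulfiredoxin that reactivates overoxidised peroxiredoxins, lies on chromosome 20 and was the scarcest member, at 7.22 and 6.89 CPM in shNC and 6.55 and 7.15 CPM in sh812. Its groups overlapped. Its log2 fold change was -0.04 (SE 0.16, adjusted p = 0.907 in edgeR), and the 95% interval of -0.37 to 0.28 was the widest of the 10. The annotation places AL121758.1, on the same strand, over 2292 of the 2698 exon bases of SRXN1. AL121758.1 held 0 to 5 counts. How reads in shared bases were counted is not given in the sources used here, so the SRXN1 level carries that uncertainty.

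**Figure D3:**
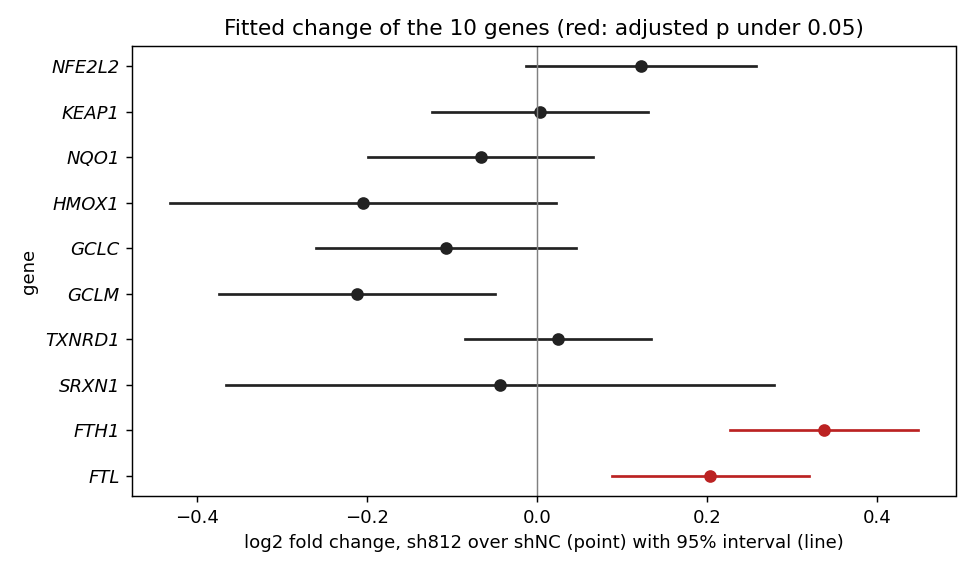
Log2 fold change of each gene, sh812 over shNC, with its 95% interval. FTH1 (0.34) and FTL (0.20) are drawn in red as called, and the interval of GCLM (-0.37 to -0.05) also lies off 0 although its adjusted p is 0.0851.

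Levels of the 10 genes spanned a wide range. Per kilobase of union exon, shNC held 1036 ± 52.8 CPM of FTL, 618 ± 12.1 of FTH1 and 266 ± 2.88 of TXNRD1 (SD, n = 2). NQO1 (39.1 ± 2.39) and KEAP1 (34.7 ± 0.984) followed, then NFE2L2 (15.3 ± 0.591) and GCLM (10.15 ± 0.771), on the same per kilobase scale. HMOX1 (7.81 ± 0.418), GCLC (6.58 ± 0.106) and SRXN1 (2.61 ± 0.0866) were lowest. These levels depend on the length used. Union exon length was 2030 bases for FTH1 and 8646 for GCLC. Their longest protein-coding transcripts in the GENCODE basic set had 1229 and 3813 bases, while FTL had 878 by either length. Levels by transcript length were not computed, so the places of FTH1 and GCLC are not settled. By union exon length, the order was the same in each of the 4 libraries. No neighbours in it overlapped between libraries of a group, and NQO1 and KEAP1 were among the closest, at 37.4 in each sh812 library against 35 and 34.5. By count, TXNRD1 ranked 29 and 32 in shNC, then 37 and 36 in sh812, and FTL moved from rank 106 and 100 to 86 and 87.

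The m6A mark is most often placed in a GGACT-like context, so this 5-letter word was counted in the longest basic transcript of each gene. FTH1 had 2 in 1229 bases (1.63 per kilobase, at the 83.9 percentile of 13237 tested genes) and FTL had 1 in 878 bases (1.14 per kilobase). HMOX1 had 0 and the median over tested genes was 0.925 per kilobase. The other members held 0.525 (GCLC) to 1.35 (KEAP1) per kilobase. GCLM had 3 in 4857 bases, or 0.618 per kilobase, and NFE2L2 had 3 in 2853 bases, or 1.05 per kilobase. The word marks no measured methylation.

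**Figure D4:**
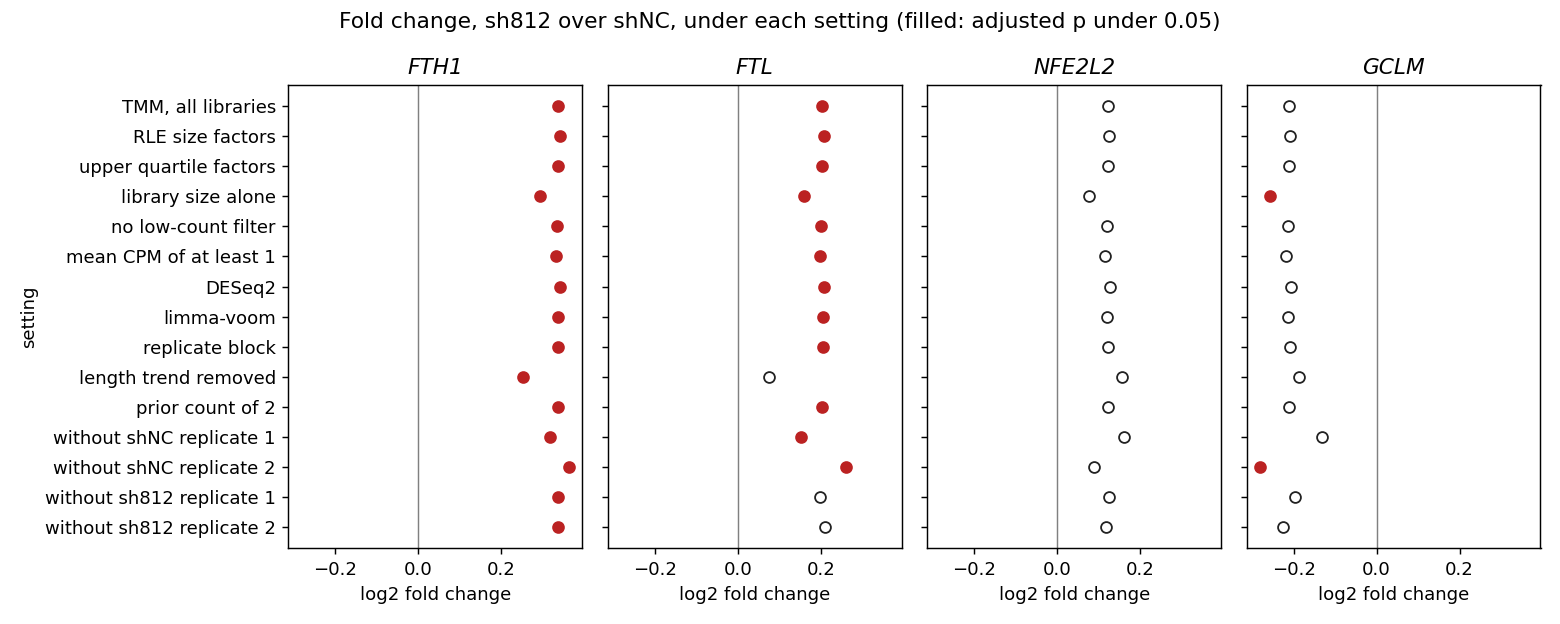
Log2 fold change of FTH1, FTL, NFE2L2 and GCLM, sh812 over shNC, under each processing setting, filled where the adjusted p was under 0.05. FTH1 is filled in all 15 settings shown, FTL in 12, GCLM in 2 and NFE2L2 in 0.

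The rest of the pathway was read through 4 further lists of 107 genes, of which 103 were tested. In total 11 were called higher and 11 lower, against 5.43% and 5.42% of all tested genes, and the median log2 fold change was -0.02. Among 16 NRF2 regulators, 0 were called higher and 2 lower, or 12.5% called against 10.8% of all tested genes, with 4 at an unadjusted p under 0.05 on the lower side and 1 on the higher side in edgeR. SQSTM1 encodes p62, a selective autophagy receptor that can sequester KEAP1. It fell from 521 ± 18.3 to 456 ± 1.55 CPM (SD, n = 2), a log2 fold change of -0.19 (adjusted p = 0.0278 in edgeR). That call was lost with the length trend removed, at -0.14 (adjusted p = 0.108 in edgeR), and without sh812 replicate 1 or 2, at -0.19 in both. MAFG, a small MAF partner of NRF2, fell from 67.9 to 57.6 CPM, a log2 fold change of -0.24 (adjusted p = 0.0323 in edgeR). The MAFG call was lost with DESeq2 (adjusted p = 0.0614) and without sh812 replicate 1 or 2, at -0.24 in both. BACH1, a repressor that competes with NRF2 for its sites, had a log2 fold change of -0.08 (adjusted p = 0.509 in edgeR). The list median was -0.06, with 13 of 16 values below 0, against 8570 of 16802 over all tested genes.

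Among 36 other NRF2 targets, 4 were called higher and 2 lower (11.1% and 5.56%, against 5.43% and 5.42% of all tested genes). TXN, the thioredoxin that TXNRD1 reduces, had the smallest p-value. Its CPM was 217 and 232 in shNC and 307 and 303 in sh812, clear of the controls. TXN rose by a log2 fold change of 0.44 (adjusted p = 1.79e-05 in edgeR). TXN is also short, at 1142 bases, and its value was 0.33 with the length trend removed, still called. TKT, of the pentose phosphate pathway, and the glutathione transferases GSTM3 and GSTP1 rose by 0.22, 0.22 and 0.20 on the log2 scale (adjusted p = 0.0138, 0.0371 and 0.0402 in edgeR). ABCC3, an exporter of conjugates, fell by 0.41 (adjusted p = 0.00183 in edgeR). SLC7A11, the cystine importer that feeds glutathione synthesis, had 48.8 and 49.9 CPM in shNC and 40.6 and 38.6 CPM in sh812. It fell by 0.32 on the log2 scale (adjusted p = 0.0115 in edgeR). TXN was called in all 14 alternatives. Without sh812 replicate 1, the calls of ABCC3 (-0.32), TKT (0.19), GSTM3 (0.23), GSTP1 (0.20) and SLC7A11 (-0.35) were lost. Without sh812 replicate 2, those of TKT (0.25), GSTM3 (0.22), GSTP1 (0.20) and SLC7A11 (-0.28) were lost. Without shNC replicate 1, those of GSTM3 (0.20) and GSTP1 (0.12) were lost. GSTP1 also lost its call with the length trend removed (0.11, adjusted p = 0.221 in edgeR) and with library size alone (adjusted p = 0.0952). GSTM3 lost its call with library size alone (adjusted p = 0.0963 in edgeR), with no low-count filter (adjusted p = 0.0521) and with DESeq2 (adjusted p = 0.0539). The list median was 0.05.

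Among 26 tested genes of iron handling, 4 were called higher and 3 lower, 26.9% against 10.8% of all tested genes. DESeq2 called 2 of this list and library size alone 4. For HEPH, described in the next paragraph, DESeq2 gave no adjusted p. PCBP2, an iron chaperone that loads ferritin and also binds RNA, rose from 136 to 165 CPM, a log2 fold change of 0.28 (adjusted p = 0.0046 in edgeR). The annotation places MAP3K12, on the opposite strand, over 1494 exon bases of PCBP2. MAP3K12 held 557 and 461 counts in shNC and 513 and 446 in sh812. GLRX5 and ISCU, of iron-sulfur cluster assembly, and the ferrireductase STEAP3 each rose by 0.22 on the log2 scale (adjusted p = 0.0371, 0.0388 and 0.0405 in edgeR). On the lower side, SLC40A1 encodes ferroportin, the iron exporter of the cell surface. It had 8.64 and 7.9 CPM in shNC and 4.18 and 6.76 in sh812, and fell by 0.60 (adjusted p = 0.0371 in edgeR). The SLC40A1 call was lost without sh812 replicate 1 (-0.29), without shNC replicate 1 (-0.53) and with DESeq2 (adjusted p = 0.151), and its value was -0.98 when sh812 replicate 2 was left out. STEAP2, another metalloreductase, fell by 0.44 (adjusted p = 0.00922 in edgeR), a call lost without shNC replicate 1 (-0.27) or sh812 replicate 1 (-0.42). Without sh812 replicate 1, PCBP2 (0.29), GLRX5 (0.22), ISCU (0.19) and STEAP3 (0.24) were not called. Without sh812 replicate 2, PCBP2 (0.27), GLRX5 (0.22), ISCU (0.24) and STEAP3 (0.20) were not called, and GLRX5 was also not called without shNC replicate 1 (0.17). GLRX5 lost its call with the length trend removed (0.16, adjusted p = 0.101 in edgeR), and ISCU and STEAP3 lost theirs with no low-count filter (adjusted p = 0.0526 and 0.059). All 3 also lost their calls with library size alone (adjusted p = 0.0952, 0.104 and 0.108 in edgeR) and with DESeq2 (adjusted p = 0.0515, 0.051 and 0.058).

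HEPH, named after its values were seen because it is below the abundance set for naming, was the third gene of this list called lower. It encodes hephaestin, a ferroxidase that works with ferroportin. It had 129 and 120 counts in shNC and 14 and 8 in sh812, so the groups were far apart. Its log2 fold change was -3.52, with an SE of 0.37 and an edgeR adjusted p of 5.51e-07. TFRC, the transferrin receptor, stood at 1235 ± 20.4 CPM in shNC against 1215 ± 26.5 in sh812 (SD, n = 2). Its log2 fold change was -0.02 (adjusted p = 0.844 in edgeR), and 0.03 with the length trend removed. The ratio of TFRC to FTH1 counts was 0.987 and 0.983 in shNC and 0.778 and 0.756 in sh812.

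Among 25 tested glutathione and redox enzymes, 3 were called higher and 4 lower (28% against 10.8%). GPX1, the abundant cytosolic glutathione peroxidase, had 138 and 150 CPM in shNC and 189.8 in each sh812 library. It rose by 0.40 on the log2 scale (adjusted p = 0.000111 in edgeR), and by 0.29 with the length trend removed (adjusted p = 0.00108 in edgeR). GPX4, which reduces lipid peroxides and restrains ferroptosis, rose from 172 ± 17.4 to 202 ± 4.34 CPM (SD, n = 2), a log2 fold change of 0.23 (adjusted p = 0.0249 in edgeR). The GPX4 call was lost with library size alone (0.19) and with the length trend removed (0.15). It was also lost without shNC replicate 1 (0.13), sh812 replicate 1 (0.25) or sh812 replicate 2 (0.21), and its value was 0.34 without shNC replicate 2. GGCT, of the glutathione cycle, rose by 0.37 (adjusted p = 0.0101 in edgeR). Extracellular superoxide dismutase SOD3, the stress sensor SESN2, the lipid ligase ACSL4 and catalase CAT fell by 0.58, 0.40, 0.30 and 0.26 on the log2 scale (adjusted p = 0.00464, 0.0238, 0.00835 and 0.022 in edgeR). GPX1 was called in all 14 alternatives. Without sh812 replicate 1, GGCT (0.29), CAT (-0.20) and SESN2 (-0.37) were not called. Without sh812 replicate 2, SOD3 (-0.48), ACSL4 (-0.22), CAT (-0.31) and SESN2 (-0.44) were not called. GGCT also lost its call with the length trend removed (0.26, adjusted p = 0.059 in edgeR), and SESN2 lost its call with DESeq2 (adjusted p = 0.0861).

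**Figure D5:**
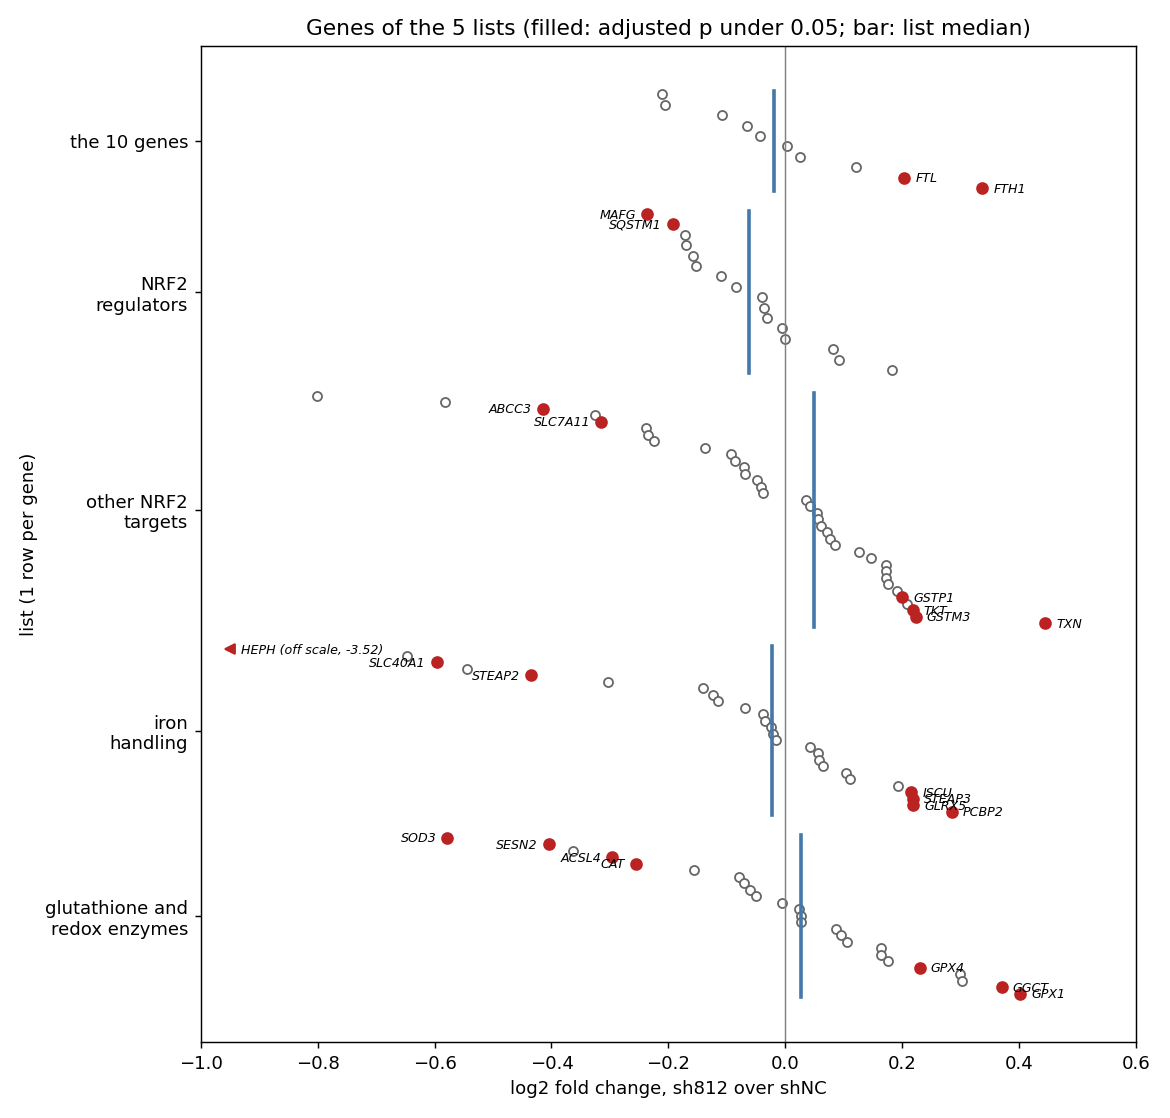
Log2 fold change, sh812 over shNC, of each tested gene of the 10 genes and of the 4 further lists, 1 row per gene, with called genes filled and named and the list median as a bar. HEPH (-3.52) lies off the scale, and called genes stand on both sides of 0 in the lists of other targets, iron handling and redox enzymes.

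The genes nearest in pattern were taken from 90 genes of the 4 lists with a mean CPM of at least 5, by the root mean square difference of centred log2 CPM over the 4 libraries. For FTH1 these were GPX1 (0.0424), PCBP2 (0.0449) and GSTM3 (0.0572). For NFE2L2 they were CBR3 (0.0335), PRDX3 (0.0379) and FECH (0.0424). None of the latter 3 was called, with log2 fold changes of 0.13, 0.11 and 0.06. With only 4 libraries, this likeness describes these samples and no more.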

How the data were processed

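Per the submitters' processing notes, fastp, STAR 2.7.1a, featureCounts and DESeq2 were used with hg38, with no settings given. The authors deposited raw read counts per gene. The annotation release and strand setting are not given in the sources used here. From the counts, edgeR 4.0.16 in R 4.3.3 was run (filterByExpr, TMM, glmQLFit, glmQLFTest, no covariate), with Benjamini-Hochberg adjustment over 16802 genes and calls at an adjusted p under 0.05. SEs come from the quasi-likelihood F. CPM uses TMM library sizes, and union exon lengths come from GENCODE 29. The 2 replicates of each group differed by more than counting noise (chi-square per gene 8.43 and 4.51), so they were not treated as copies of 1 library. This does not show separate cultures. The methods were tested on simulated counts that held no length trend, so that test does not cover the length trend of these libraries.

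The members and lists were chosen with earlier results of these data known. Named are the members, METTL3, up to 5 called genes per list and direction (mean CPM 5 or more), the 3 nearest patterns of NFE2L2 and FTH1, and TFRC, SLC7A11, SQSTM1, BACH1 and GPX4. Any other gene was named after its values were seen. Some marker and neighbouring genes are not reported here.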

Additional observations from a re-analysis of the deposited data

How the results depend on the processing

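Alternatives were RLE, upper quartile and library size scaling, 2 filters, DESeq2 1.42.0, limma-voom 3.58.1, a prior count of 2, a replicate block, the length trend removed and each library left out. Of 140 values of the 10 genes, 127 kept direction and side of the threshold. Library size alone gave KEAP1 -0.0412, TXNRD1 -0.0201, GCLM -0.26 and 4 iron handling calls. A mean CPM of at least 1 gave KEAP1 -0.0021. DESeq2 gave 2 iron handling calls, with no adjusted p for HEPH. Removing the length trend gave KEAP1 -0.0236, FTL 0.0759, TFRC 0.0324, 1 member called (against 2) and 1 NRF2 regulator called (against 2). For each of these, the cause was not tested. Leaving out a library gave KEAP1 -0.0256 to 0.0379, NQO1 -0.13 to 0.0024, GCLM -0.28 to -0.13, SRXN1 -0.11 to 0.0196 and FTL 0.15 to 0.26. Calls then ran from 587 (without sh812 replicate 1) to 3252 (without shNC replicate 2) for all genes, 1 to 3 for members, 0 to 5 for regulators, 1 to 10 for other targets, 1 to 7 for iron handling and 2 to 10 for redox enzymes. Of 391 values of 28 other genes, 324 kept direction and side of the threshold, 59 lost a call, 7 gained one and 1 reversed. The replicate numbers gave no sign of pairing (correlation of deviations 0.0369 across genes), and the replicate block gave 2001 called genes and the same 2 members. With 2 libraries a group, small changes such as those of NFE2L2, HMOX1 and GCLC were not resolved.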
